A study of Rattus norvegicus with 12 samples.

Results

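Overexpression of the histone deacetylase HDAC1 without added TGFB1 was described from 6 of the 12 libraries of a poly(A) RNA sequencing study of NRK-49F cells, a fibroblast line established from normal rat kidney. The 6 libraries were chosen by their titles: 3 from cells transfected with the empty vector pcDNA3.1 and 3 from cells transfected with a plasmid encoding Flag-tagged human HDAC1. Both groups received vehicle, a medium with 0.5% FBS and no TGFB1, for 24 hours. The other 6 libraries carried the same plasmids and received 2 ng/ml TGFB1 in that medium, and they enter here only through the shared estimate of spread and the flagged comparisons. The design text speaks of TGFB1 for all cells, so the titles and the treatment labels, which name vehicle, were followed. The labels do not say whether replicates were separate cultures, nor what share of the cells took up a plasmid, and p-values therefore measure the spread between libraries.

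HDAC1 takes acetyl groups off histones and other proteins and works mostly inside larger corepressor complexes, such as Sin3, NuRD and CoREST, that transcription factors recruit to promoters and enhancers. It is best known for holding genes down, but deacetylase activity is also needed for the full expression of many genes, among them genes induced by interferon and genes of dividing cells. Kidney fibroblasts make the interstitial matrix, and they also release chemokines, complement proteins and growth factors and carry the receptors through which epithelium and immune cells act on them.

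Library totals were 18397093 to 27119357 counts with the empty vector and 24662270 to 36652084 with HDAC1, and 14601 genes passed the filter on low counts. Mitochondrially encoded genes held 1.77% to 1.87% of counts with the empty vector and 2.13% to 2.44% with HDAC1; the groups did not overlap in this share, and its part in the results was not tested. On the first principal component of the 6 libraries (42.9% of the variance), empty vector replicate 1 lay at -47.1, the other empty vector libraries at -6.57 and 0.35, and the HDAC1 libraries at 12.4 to 20.8. That replicate held few heart transcripts, which is described with the cell type markers below, and list counts without it are given below.

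Of the 14601 genes, 2038 (14.0%) were called different by edgeR's quasi-likelihood test at a Benjamini-Hochberg adjusted p under 0.05: 969 were higher with HDAC1 (6.64% of genes tested) and 1069 lower (7.32%). In 950 of the higher and 1050 of the lower genes, the 3 HDAC1 libraries lay wholly beyond the 3 empty vector libraries. Among all 14601 genes tested, called or not, they lay wholly above in 2225 and wholly below in 2526. The changes were small: their median size was 0.37 on the log2 scale, 82.5% were under 1.5-fold, and 117 reached 2-fold (78 higher, 39 lower). HDAC1 replicate 2 was the HDAC1 library nearest to the empty vector mean for 68.3% of the called genes and for 40.8% of the others. Likewise, empty vector replicate 3 was the empty vector library nearest to the HDAC1 mean for 61.6% and 40.8%. Without empty vector replicate 1, 1246 genes were called (671 higher, 575 lower). Of the 2038, 1218 remained called with the same direction and 820 calls were lost. All 2038 kept their sign, but where the groups do not overlap, leaving out 1 library can hardly change it. Leaving out HDAC1 replicate 1 left 1153 calls, leaving out HDAC1 replicate 3 left 1360 (575 of them lower), and 931 genes were called in each of the 6 fits that left out 1 library. Each list count below is to be read beside the shares of all genes tested: 14.0% called, 6.64% higher and 7.32% lower. These shares hold for the fit with all libraries. A list count without a library is to be read beside the calls of that fit among all 14601 genes. Without empty vector replicates 1, 2 and 3 these were 671 higher and 575 lower, 658 and 811, and 871 and 1032. Without HDAC1 replicates 1, 2 and 3 they were 628 and 525, 1035 and 1097, and 785 and 575. Where a list below is given with 0 genes in a direction by edgeR's test, the count at an unadjusted p under 0.05 was 0 and DESeq2's test also gave 0, unless stated. Genes named below with their levels in every library were called in all 6 of these fits unless stated. The largest changes were named only where the groups did not overlap. For those genes a gap between the groups follows from the choice and is no added result.

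The plasmid's own gene was read first. Hdac1 was at 212, 205 and 212 CPM, the count scaled to library size after TMM, in the 3 empty vector libraries and at 428, 375 and 460.4 CPM in the HDAC1 libraries (log2 change of HDAC1 over empty vector 1.00, SE 0.08, edgeR adjusted p = 9.29e-07). Hdac1l, whose name marks it as a copy of Hdac1, was at 0.53, 15.1 and 9.23 CPM and 1297, 852 and 1367 CPM (log2 change 7.18, SE 0.66, edgeR adjusted p = 0.000238). The groups did not overlap for either gene, and HDAC1 replicate 2 was the lowest HDAC1 library for both. How reads of the human sequence were divided between these genes is not given in the sources used here, so neither value is a level of the rat transcript.

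Of the 15 largest rises among named genes 5 were in the lists of secreted genes and 2 in those of surface genes, and of the 15 largest falls 4 and 1. Besides the chemokines and cytokines described next, Krt79, a keratin, went from 3.18, 4.35 and 5.83 CPM to 12.9, 8.89 and 10.7 CPM (log2 change 1.27, SE 0.17, edgeR adjusted p = 7.50e-05). Gch1, the first enzyme of tetrahydrobiopterin synthesis, Ido2, an enzyme of tryptophan breakdown, and Uchl1, a neuronal ubiquitin hydrolase, rose by 0.94, 0.98 and 0.97 on the log2 scale (edgeR adjusted p = 0.00782, 0.000824 and 0.00150). Among the falls, Ccn3, a matricellular protein of the CCN family, was at 236, 250.3 and 166 CPM with the empty vector and 79.9, 97.4 and 82.9 CPM with HDAC1 (log2 change -1.33, SE 0.22, edgeR adjusted p = 0.00453). Its relative Ccn5 was at 89.6, 92.8 and 75.4 CPM and 32, 44.7 and 34.2 CPM (log2 change -1.22, SE 0.11, edgeR adjusted p = 2.57e-06). Both fell in every HDAC1 library below the lowest empty vector library. Hsd11b1, which regenerates active glucocorticoid from its inactive form, fell from 103, 103 and 95.9 to 37.2, 54.2 and 39.8 CPM (log2 change -1.21, SE 0.14, edgeR adjusted p = 0.000108). Aspn, the small matrix proteoglycan asporin, fell by 1.09 on the log2 scale, Ly6e, an interferon-induced surface protein, by 1.13, and Cp, the copper carrier ceruloplasmin, by 1.11 (edgeR adjusted p = 1.75e-05, 0.00112 and 0.00290). AC128848.1 rose by 1.13 (edgeR adjusted p = 0.0126), a call that was lost without empty vector replicate 1 (0.0533).

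Secreted genes held the highest share of calls among the 3 classes of transcription factors, secreted genes and surface genes: of 232 tested, 23 were higher and 49 lower (31.0% against 14.0% of all genes), and 17 and 32 without empty vector replicate 1. Chemokines, small proteins that direct the migration of leukocytes, went both ways, with 6 of 17 higher, 6 lower and 5 not called. Without empty vector replicate 1 these were 5 higher and 5 lower. Cxcl2, a neutrophil attractant, was at 2.83, 2.12 and 2.61 CPM with the empty vector and 7.5, 5.39 and 7.29 CPM with HDAC1 (log2 change 1.41, SE 0.21, edgeR adjusted p = 0.000138). Cxcl3, of the same group, was at 12, 12 and 12.2 and 26.2, 14.6 and 19.9 CPM (log2 change 0.75, SE 0.17, edgeR adjusted p = 0.00507). In both genes every HDAC1 library was above every empty vector library, and replicate 2 was the lowest of the HDAC1 libraries. Ccl4, an attractant of monocytes and T cells, rose from 4.82, 5.41 and 6.37 to 13.6, 8.97 and 9.97 CPM (log2 change 0.97, SE 0.20, edgeR adjusted p = 0.00325). Ccl27 rose by 0.87 (edgeR adjusted p = 0.00594). Cxcl1 was above the empty vector in every HDAC1 library, at 83.8, 59.1 and 73.1 against 50.1, 56.7 and 46 CPM, but missed the threshold (log2 change 0.50, SE 0.16, edgeR adjusted p = 0.0577).

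The chemokines that fell included those of stromal cells. Cxcl12, the ligand of the receptor CXCR4 that retains blood cell progenitors, was at 95.5, 116 and 76.2 CPM and 48.1, 60.3 and 49.95 CPM (log2 change -0.86, SE 0.14, edgeR adjusted p = 0.000914). Cxcl13, an attractant of B cells, was at 15.9, 19.1 and 13.3 CPM and 5.86, 6.88 and 5.69 CPM (log2 change -1.38, SE 0.16, edgeR adjusted p = 1.47e-05). The empty vector libraries differed among themselves in both genes, with replicate 2 highest and replicate 3 lowest, yet none came down to the HDAC1 libraries. Ccl7 fell by 0.47 and the interferon-induced Cxcl10 by 0.32 on the log2 scale (edgeR adjusted p = 0.00472 and 0.00668). Ccl2, the main monocyte attractant of fibroblasts, overlapped between the groups, at 888, 931 and 893 and 925, 882 and 852 CPM (log2 change -0.03, SE 0.08, edgeR adjusted p = 0.856). Ccl7, Cxcl1, Cxcl3, Cxcl10 and Ccl2 lie outside the rule for named genes and were chosen after their values were seen.

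**Figure D1:**
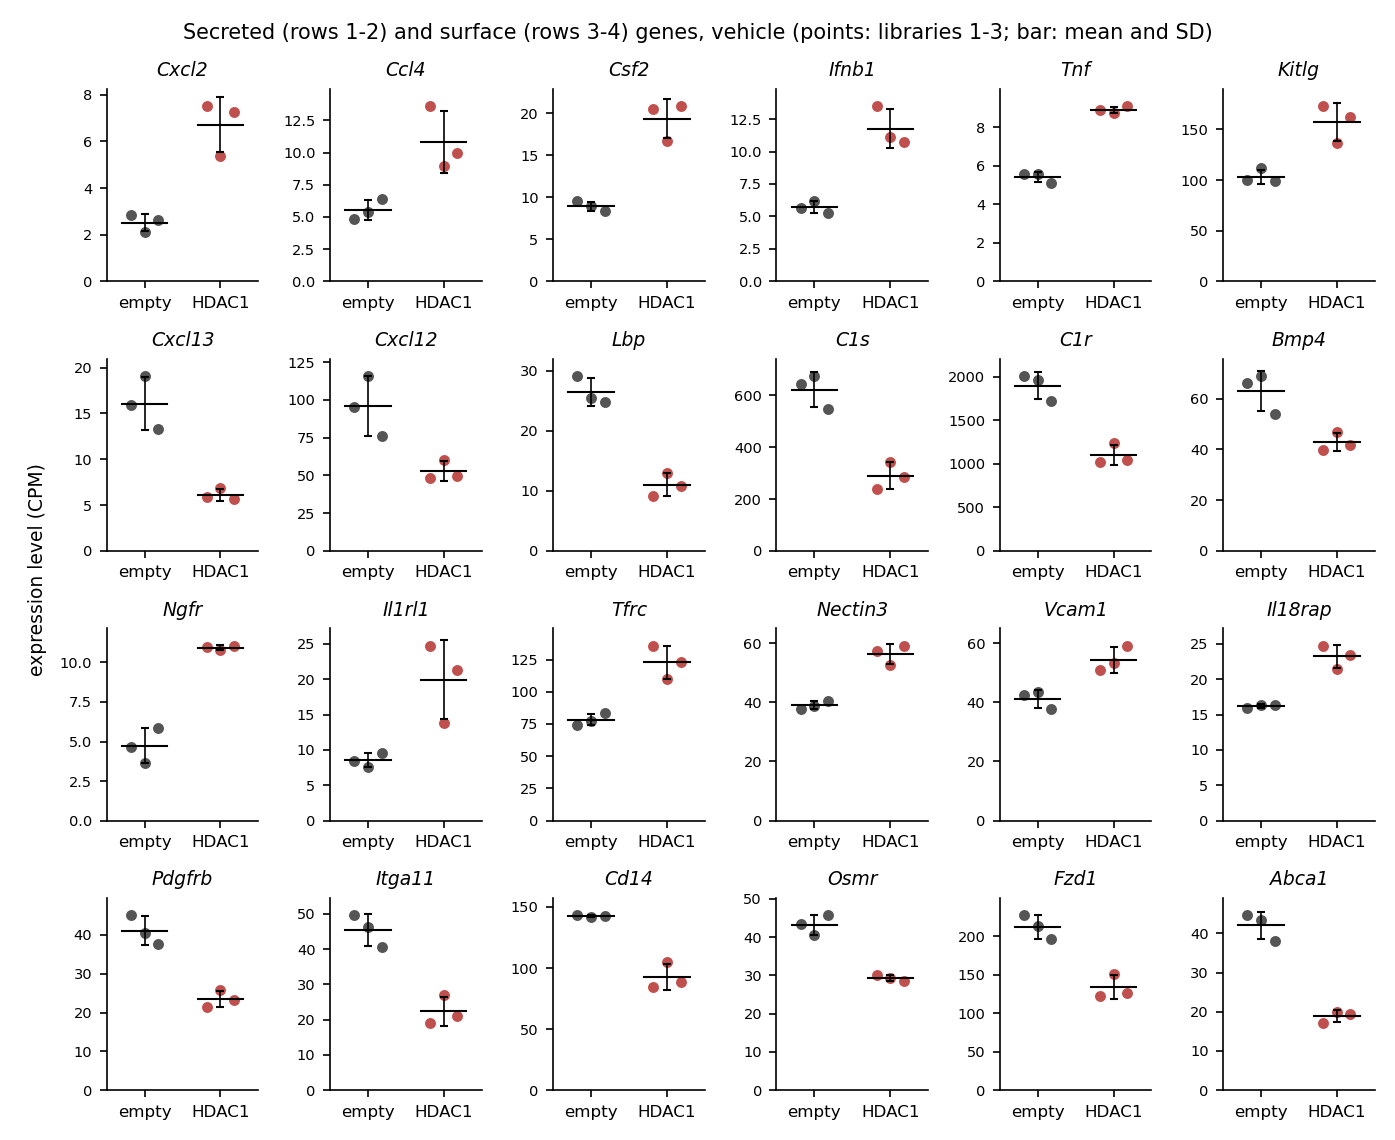
Expression level in CPM (vertical axes, linear from 0, a scale per gene) of 24 secreted and surface genes in the 3 empty vector (grey) and 3 HDAC1 (red) vehicle libraries. Points run from replicate 1 at the left to replicate 3 at the right, and bars give the mean and SD. The groups do not overlap in any of these genes. In Cxcl2, Ccl4, Csf2, Tnf, Kitlg, Ngfr, Il1rl1, Tfrc, Nectin3 and Il18rap replicate 2 is the lowest HDAC1 library. The largest changes were named only where the groups did not overlap, so this gap follows in part from the choice of genes.

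Of 26 interleukin and TNF family ligands, 4 were higher and 0 lower by edgeR's test (3 and 0 without empty vector replicate 1). At an unadjusted p under 0.05 by that test 2 were lower, and 0 by DESeq2. Among all genes tested, 14.0% were called and 6.64% were higher. Ifnb1, the gene of interferon beta, was at 5.66, 6.2 and 5.29 CPM with the empty vector and 13.5, 11.1 and 10.7 CPM with HDAC1 (log2 change 1.05, SE 0.13, edgeR adjusted p = 2.74e-05). Tnf, an inflammatory cytokine, was at 5.57, 5.57 and 5.12 CPM and 8.88, 8.73 and 9.08 CPM (log2 change 0.72, SE 0.13, edgeR adjusted p = 0.000873). Mif, a cytokine stored in many cell types, was at 122, 101 and 126 and 196, 164 and 168 CPM (log2 change 0.60, SE 0.09, edgeR adjusted p = 0.000122). None of these overlapped between the groups. Il6 was called as well (log2 change 0.46, edgeR adjusted p = 0.0378), but its groups overlapped, with 11, 7.31 and 11 CPM against 7.82, 6.997 and 6.58 CPM, and it was called in 1 of the 6 fits that left out a library.

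Growth factors had 5 higher and 5 lower of 41 (2 lower without empty vector replicate 1 or without HDAC1 replicate 3). Csf2, the gene of the myeloid growth factor GM-CSF, was at 9.5, 8.9 and 8.37 CPM and 20.5, 16.7 and 20.8 CPM (log2 change 1.12, SE 0.14, edgeR adjusted p = 4.30e-05). Kitlg, the ligand of the receptor KIT, was at 99.8, 112 and 98.7 and 173, 136 and 162 CPM (log2 change 0.61, SE 0.11, edgeR adjusted p = 0.00130). Nrg1, a ligand of ERBB receptors, rose from 7.38, 5.67 and 7.8 to 13.5, 11.1 and 12.2 CPM (log2 change 0.81, SE 0.12, edgeR adjusted p = 0.000118). In these 3 genes the lowest HDAC1 library was replicate 2 and still lay above the highest empty vector library. Gas6, the ligand of TAM receptors, fell from 159, 144 and 134 to 80.01, 103 and 89.8 CPM (log2 change -0.68, SE 0.09, edgeR adjusted p = 9.45e-05).

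Complement and acute-phase genes fell more often than they rose: 9 of 20 were lower, 1 higher and 10 not called, with a median log2 fold change of -0.39 against -0.01 for all genes tested. C1r and C1s, the proteases that start the classical complement pathway, were at 2007, 1960 and 1719 and 644, 674 and 547 CPM with the empty vector and at 1023, 1238 and 1046 and 239.9, 344 and 283 CPM with HDAC1 (log2 changes -0.78 and -1.11, SE 0.08 and 0.12, edgeR adjusted p = 3.94e-06 and 7.10e-05). Lbp, which carries bacterial lipopolysaccharide to its receptor, was at 29.1, 25.4 and 24.8 CPM and 9.19, 13 and 10.9 CPM (log2 change -1.27, SE 0.11, edgeR adjusted p = 1.59e-06). For these genes HDAC1 replicate 2 was the highest HDAC1 library and no library crossed into the other group. C4b, a complement component cut by these proteases, fell by 1.38 on the log2 scale (edgeR adjusted p = 0.000330). The gene that rose, Itih2, was low at 2.77, 0.944 and 1.68 against 0.883, 0.689 and 0.608 CPM, and its call was lost without HDAC1 replicate 1, empty vector replicate 2 or empty vector replicate 3 (called in 3 of the 6 fits; edgeR adjusted p = 0.0195 with all libraries). Without empty vector replicate 1, 8 complement and acute-phase genes were lower and 1 higher.

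Secreted regulators of the BMP, WNT and protease systems held changes in part of their members. Of 19 BMP and GDF ligands and antagonists, 8 fell and 0 rose by edgeR's test (median log2 fold change -0.26; 2 higher at an unadjusted p under 0.05 and 1 by DESeq2), with 4 falls without empty vector replicate 1 and 3 without HDAC1 replicate 1. Bmp4, a ligand of this family, was at 66.2, 68.9 and 54 CPM and 39.9, 47 and 41.9 CPM (log2 change -0.55, SE 0.11, edgeR adjusted p = 0.00186). Nbl1, a secreted antagonist, was at 412, 394 and 376 and 261, 299.5 and 258 CPM (log2 change -0.53, SE 0.07, edgeR adjusted p = 2.51e-05). Of 13 WNT ligands and secreted antagonists 1 was higher, 3 lower and 9 not called (0 and 3 without empty vector replicate 1). The ligand Wnt7b rose by 0.31, while Dkk3 and Sfrp4 fell by 0.49 and 0.38 on the log2 scale (edgeR adjusted p = 0.0135, 4.10e-05 and 0.000478). Serpins and other protease inhibitors had 4 higher and 8 lower of 24, with 2 and 4 without empty vector replicate 1 or without HDAC1 replicate 1 and 5 lower without HDAC1 replicate 3. Serpinb2, an inhibitor of urokinase, rose from 13.7, 12.6 and 16.8 to 31.2, 23.5 and 27.9 CPM (log2 change 0.94, SE 0.18, edgeR adjusted p = 0.00282). All genes tested had 14.0% called and 7.32% lower. Among 31 guidance cues 5 fell and 0 rose by edgeR's test (4 higher at an unadjusted p under 0.05 and 2 by DESeq2). There were 3 falls without empty vector replicate 1, and likewise without empty vector replicate 2, HDAC1 replicate 1 or HDAC1 replicate 3. Ntn4, a netrin, was at 12.4, 14.2 and 10.2 and 7.53, 7.71 and 7.83 CPM (log2 change -0.67, SE 0.13, edgeR adjusted p = 0.00139). Sema3b and Sema3d fell by 0.55 and 0.62 on the log2 scale (edgeR adjusted p = 0.000320 and 0.00112).

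The lists of surface genes had 28 higher and 69 lower of 494 tested (19.6% against 14.0%), and 19 and 42 without empty vector replicate 1. These lists were counted whole and hold some intracellular members. Among them are Nod1, the channel Itpr1 and the peptide transporter genes Tap1 and Tap2, which are also counted with antigen processing below. Cytokine receptors had 3 higher and 7 lower of 33, with 4 lower without empty vector replicate 1 or without HDAC1 replicate 1. Il1rl1, the receptor of interleukin-33, was at 8.39, 7.63 and 9.55 CPM with the empty vector and 24.8, 13.8 and 21.4 CPM with HDAC1 (log2 change 1.23, SE 0.24, edgeR adjusted p = 0.00718). Il18rap, a subunit of the interleukin-18 receptor, was at 15.9, 16.3 and 16.3 and 24.7, 21.5 and 23.4 CPM (log2 change 0.52, SE 0.09, edgeR adjusted p = 0.000427). Every HDAC1 library exceeded every empty vector library in both. On the lower side, Osmr, the oncostatin M receptor, was at 43.6, 40.5 and 45.7 CPM and 30.2, 29.2 and 28.5 CPM (log2 change -0.56, SE 0.08, edgeR adjusted p = 5.12e-05). Ifnar1, a subunit of the receptor of interferon beta, was at 107, 113 and 101 and 81.7, 88.9 and 82.2 CPM (log2 change -0.35, SE 0.06, edgeR adjusted p = 0.000846). The TNF receptor family had 1 higher and 3 lower of 15 (1 and 1 without empty vector replicate 1 or HDAC1 replicate 1). Ngfr, the low-affinity receptor of neurotrophins, was the member that rose, from 4.64, 3.66 and 5.87 to 11, 10.8 and 11.1 CPM (log2 change 1.20, SE 0.16, edgeR adjusted p = 3.80e-05). Tnfrsf1a, the main TNF receptor, fell from 130.1, 126 and 127 to 97.5, 109 and 100.4 CPM (log2 change -0.32, SE 0.06, edgeR adjusted p = 0.00139).

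Receptors of growth factors, matrix and WNT ligands were mostly not called. Of 40 receptor tyrosine kinases 7 fell and 0 rose by edgeR's test (5 higher at an unadjusted p under 0.05, 0 by DESeq2). Among all genes tested, 14.0% were called and 7.32% were lower. In this list 1 fell without empty vector replicate 1 or without HDAC1 replicate 1, 2 without HDAC1 replicate 3 and 4 without empty vector replicate 2. The one that did not depend on a library was Pdgfrb, the PDGF receptor of pericytes and fibroblasts, at 45, 40.5 and 37.7 CPM and 21.4, 25.7 and 23.2 CPM (log2 change -0.81, SE 0.11, edgeR adjusted p = 4.83e-05). Integrins had 2 higher and 2 lower of 19 (1 and 1 without empty vector replicate 1 or HDAC1 replicate 3). Itga11, the integrin chain with which fibroblasts bind fibrillar collagen, was at 49.6, 46.2 and 40.7 CPM and 19.1, 26.9 and 21 CPM (log2 change -1.03, SE 0.17, edgeR adjusted p = 0.00201), while Itga2, another collagen-binding chain, rose from 14.1, 16.6 and 16.6 to 22.6, 19.7 and 22.8 CPM (log2 change 0.46, SE 0.11, edgeR adjusted p = 0.00632). The frizzled receptors Fzd1 and Fzd7 were at 227, 213 and 196 and 77.9, 76.1 and 65.2 CPM with the empty vector and at 122, 151 and 127 and 44.9, 54.9 and 49.8 CPM with HDAC1 (log2 changes -0.67 and -0.55, SE 0.08 and 0.09, edgeR adjusted p = 2.75e-05 and 0.000210). Calcrl, the receptor chain for adrenomedullin, fell by 0.78 (edgeR adjusted p = 0.000131). In all of these the libraries of the groups were apart.

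Immunoglobulin-type adhesion molecules had 3 higher and 11 lower of 47 (3 and 9 without empty vector replicate 1). Nectin3, which joins cells at adherens junctions, was at 37.8, 38.6 and 40.5 CPM and 57.5, 52.6 and 59.2 CPM (log2 change 0.53, SE 0.07, edgeR adjusted p = 6.25e-05). Vcam1, to which leukocytes bind through integrins, was at 42.3, 43.4 and 37.8 CPM and 50.8, 53.1 and 59.1 CPM (log2 change 0.40, SE 0.08, edgeR adjusted p = 0.00151). Cadm1 fell from 93.4, 83.8 and 78.7 to 57.8, 64.2 and 59.9 CPM (log2 change -0.49, SE 0.07, edgeR adjusted p = 0.000103). Pattern recognition and scavenger receptors had 0 higher and 8 lower of 24 by edgeR's test (median log2 fold change -0.26; 1 higher at an unadjusted p under 0.05, 0 by DESeq2), 7 lower without empty vector replicate 1 and 5 without HDAC1 replicate 3. Cd14, the co-receptor that takes lipopolysaccharide from Lbp, was at 143, 142 and 142 CPM and 84.5, 105 and 88.9 CPM (log2 change -0.62, SE 0.08, edgeR adjusted p = 2.67e-05). Nod1, an intracellular sensor of bacterial wall fragments, fell by 0.42 (edgeR adjusted p = 0.00230). Both steps of lipopolysaccharide handling named here, Lbp and Cd14, thus lay lower in every HDAC1 library.

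Transporters changed by single members. Tfrc, the transferrin receptor, was at 74.3, 77.6 and 83.2 CPM and 136, 109.6 and 123 CPM (log2 change 0.65, SE 0.09, edgeR adjusted p = 8.06e-05). Slc7a5, a chain of the large neutral amino acid carrier, rose from 79.6, 68.8 and 88.2 to 98.3, 94.5 and 106 CPM (log2 change 0.33, SE 0.08, edgeR adjusted p = 0.00581). Slc6a9, a glycine carrier, fell from 60.5, 48.1 and 53.8 to 30.7, 39.5 and 32.2 CPM (log2 change -0.67, SE 0.10, edgeR adjusted p = 0.000232). Abca1, which exports cholesterol to apolipoprotein A-I and is a classical target of the oxysterol receptors LXR, was at 44.6, 43.5 and 38.1 CPM and 17.2, 20.02 and 19.5 CPM (log2 change -1.15, SE 0.11, edgeR adjusted p = 2.94e-06). Of 10 LXR target genes 4 fell and 0 rose by edgeR's test (3 falls without empty vector replicate 1; 1 higher at an unadjusted p under 0.05, 0 by DESeq2). The others were Mylip, a ligase that degrades the LDL receptor, with 42.4, 38.5 and 40.1 CPM falling to 16.8, 22.9 and 20.7 CPM (log2 change -1.01, SE 0.10, edgeR adjusted p = 2.94e-06), Srebf1, a regulator of fatty acid synthesis (log2 change -0.59, edgeR adjusted p = 0.000375), and Lpcat3, an enzyme of phospholipid remodelling (log2 change -0.33, edgeR adjusted p = 0.00951). Lpcat3 was not called without empty vector replicate 1 (edgeR adjusted p = 0.0674), without HDAC1 replicate 1 or without HDAC1 replicate 3. ABC transporters as a list had 1 higher and 6 lower of 34, but 1 lower without empty vector replicate 1 or HDAC1 replicate 1 and 2 lower without empty vector replicate 3 or HDAC1 replicate 3. Ion channels, with 3 higher and 3 lower of 74 (2 and 2 without empty vector replicate 1; 1 to 4 and 1 to 5 over the fits that left out a library), stayed under the share of all genes called.

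Transcription factors were called no more often than genes in general: of 244 tested, 7 were higher and 27 lower (13.9% against 14.0%), and 5 and 14 without empty vector replicate 1. With all libraries falls outnumbered rises in every list except SOX factors (1 each), but leaving out a library changed this in part. Forkhead factors had 2 higher and 3 lower, then 2 and 1 without empty vector replicate 1, 2 and 0 without HDAC1 replicate 1, and 2 and 2 in each of the other 4 fits. The bZIP factors had 2 and 4, and 2 and 2 without empty vector replicate 1. Nuclear receptors and HOX and TALE factors had 1 and 3 each, and 1 and 1 without HDAC1 replicate 3. KLF and SP factors, ETS factors, bHLH factors, clock genes and mesenchymal lineage factors had 2 to 4 falls each and 0 rises by edgeR's test (0 to 3 higher at an unadjusted p under 0.05, 0 by DESeq2), and 0 to 5 falls and 0 to 2 rises in the fits that left out 1 library. Tbx18, a T-box factor of the developing urinary tract and of pericytes, was at 48.8, 41.2 and 35.9 CPM and 23.6, 25.1 and 28.6 CPM (log2 change -0.71, SE 0.10, edgeR adjusted p = 8.27e-05). Maf, a large bZIP factor, was at 87, 89.6 and 74.5 CPM and 46, 58.2 and 53.6 CPM (log2 change -0.67, SE 0.09, edgeR adjusted p = 7.10e-05). Sox4, an HMG-box factor of embryonic tissue, was at 112, 107 and 90.6 and 73.3, 69.8 and 71.8 CPM (log2 change -0.52, SE 0.08, edgeR adjusted p = 0.000136). No HDAC1 library reached the empty vector range in these genes, whose levels with HDAC1 lay close together. Klf15, Mkx (mohawk, a factor of tendon cells), Cebpa and the thyroid hormone receptor Thrb fell by 0.62, 0.48, 0.40 and 0.50 on the log2 scale (edgeR adjusted p = 0.00112, 0.000320, 0.00250 and 0.00618). The clock genes Bhlhe40 and Cry2 fell by 0.28 and 0.32 (edgeR adjusted p = 0.00345 and 0.00489).

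The transcription factors that rose were few. Jun, a component of AP-1, was at 296, 227 and 289.9 CPM with the empty vector and 392, 331 and 372 CPM with HDAC1 (log2 change 0.43, SE 0.09, edgeR adjusted p = 0.00273). Foxm1, which drives genes of mitosis, was at 55.9, 47.3 and 59 and 79.2, 67.1 and 73.8 CPM (log2 change 0.44, SE 0.09, edgeR adjusted p = 0.00183). Pbx3, a TALE partner of HOX proteins, rose by 0.42 (edgeR adjusted p = 0.00559). The gap between the groups was narrow in each: the lowest HDAC1 library of Jun was 331 CPM and its highest empty vector library 296 CPM. Nr4a3, an immediate early nuclear receptor, had the largest fold change, but 1 library led it: it was at 1.1, 0.53 and 0.716 CPM and 9.46, 1.69 and 2.06 CPM (log2 change 2.51, SE 0.65, edgeR adjusted p = 0.0273). Without HDAC1 replicate 1 its log2 fold change was 1.26 (edgeR adjusted p = 0.0260), and it was not called without empty vector replicate 1, 2 or 3 (edgeR adjusted p = 0.0770, 0.0986 and 0.0924).

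**Figure D2:**
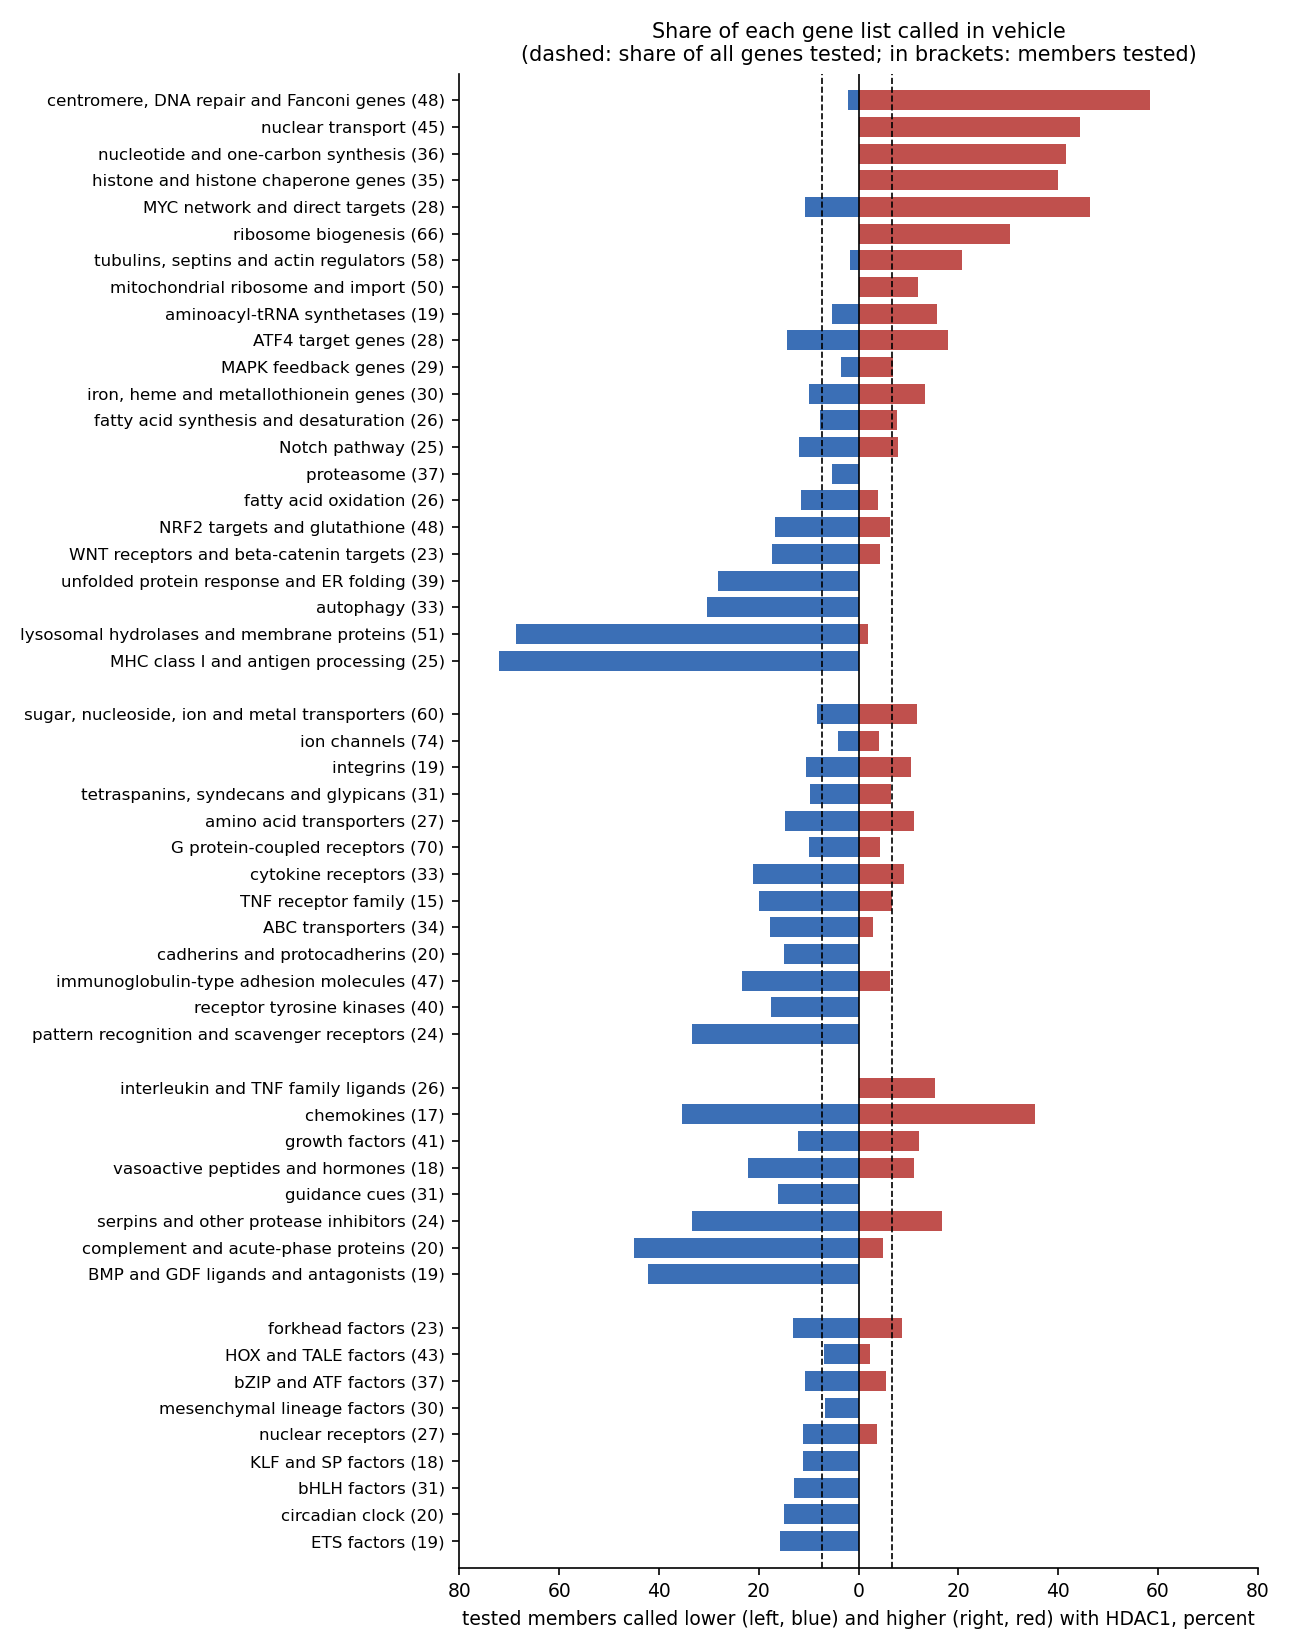
Share of tested members called lower (blue, to the left) and higher (red, to the right) with HDAC1 in vehicle, in percent, for 52 lists with at least 15 members tested, ordered from bottom to top as transcription factors, secreted genes, surface genes and pathways. Dashed lines mark the shares of all genes tested, 7.32% lower and 6.64% higher; antigen processing and lysosomal genes reach farthest to the left and centromere, DNA repair and Fanconi genes farthest to the right.

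Genes of MHC class I and antigen processing and of lysosomes had the highest shares of falls among pathways. These genes make the peptides, carry them into the endoplasmic reticulum and build the complex that shows them to T cells. Of 25 tested, 18 were lower, 0 higher by edgeR's test and 7 not called, and each of the 25 had a fold change below 1, or 24 without HDAC1 replicate 3 (median log2 fold change -0.32). The count was smaller in fits that also called fewer of all genes lower. In this list 10 were lower without empty vector replicate 1, 12 without empty vector replicate 2, 6 without HDAC1 replicate 1 and 7 without HDAC1 replicate 3. With all libraries the share of falls in the antigen processing list was above that of the lysosomal list, and below it in each fit that left out a library other than HDAC1 replicate 2. B2m, the light chain of every class I molecule, was at 2589, 2675 and 2462 CPM with the empty vector and 1823, 2054 and 1729 CPM with HDAC1 (log2 change -0.46, SE 0.09, edgeR adjusted p = 0.00128). Tapbpl, which edits the bound peptides, was at 293, 273 and 275 and 207, 240.2 and 215 CPM (log2 change -0.35, SE 0.07, edgeR adjusted p = 0.00175). RT1-DMb, which loads class II molecules, fell from 18.4, 18.3 and 18.8 to 8.56, 11.2 and 9.0 CPM (log2 change -0.95, SE 0.14, edgeR adjusted p = 0.000122). In each the groups were apart, with HDAC1 replicate 2 the highest of its group. RT1-M3-1, a class I heavy chain, fell by 0.66 (edgeR adjusted p = 9.38e-05); the RT1 genes have near-identical copies, so their counts are uncertain. This list was drawn up with the fall of interferon-stimulated genes in these libraries known, and several of its members are such genes, so it is not independent of that result.

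Promoters were set beside these falls because the interferon-stimulated response element has a short core, GAAANNGAA on either strand, that can be read in sequence. RefSeq promoters of the assembly GRCr8, 250 bases before to 50 after each start, were matched by symbol to 9365 of the genes tested. The core stood in 9.7% of all 33469 promoters and in 7.2% of those of genes tested; it stood in 12.3% of the promoters of genes called lower and in 6.1% of those of genes called higher. Of 19 antigen processing genes with a promoter, 7 (36.8%) held it, and of 37 in the lysosomal list described next 9 (24.3%). The median GC content was 53.0% in the antigen processing promoters, 59.3% in the lysosomal ones and 61.0% in those of genes tested; its part in the share holding this A-rich core was not tested. The 6 of these 7 that were called lower are shown by 30 bases around the first match, with the core and any overlapping repeat in capitals, because they carry the match; bases run 5′ to 3′ in the direction of the gene, and a core on the opposite strand appears as its reverse complement.
B2m: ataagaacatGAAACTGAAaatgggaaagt
Tap1: ggtggctgctTTCGGTTTCttcttcctcta
Tap2: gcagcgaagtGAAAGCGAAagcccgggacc
Tapbp: gcctttgaggGAAAATGAAAGTGAAaggaa
Psmb8: tgctgtggctTTCGCTTTCacttccttgtc
Psmb10: aagcaaaggcGAAAGTGAAAGAGAAgatgc
In GRCr8 the B2m bases lie at chr3:129549170-129549199 (plus strand, match from 150 bases before the start), those of Tap1 at chr20:4668644-4668673 (minus strand, match from 120 bases before the start) and those of Tap2 at chr20:4652318-4652347 (minus strand, match from 41 bases before the start). The Tapbp bases lie at chr20:4967884-4967913 (minus strand, match from 26 bases before the start), those of Psmb8 at chr20:4657015-4657044 (minus strand, match from 3 bases before the start) and those of Psmb10 at chr19:50743346-50743375 (minus strand, match from 73 bases before the start).
Tap1 and Tap2, the transporter that brings peptides into the endoplasmic reticulum, fell by 0.27 and 0.27 on the log2 scale, and Tapbp, which bridges it to class I molecules, by 0.30 (edgeR adjusted p = 0.0253, 0.0113 and 0.0188). Psmb8 and Psmb10, which are among the catalytic subunits of the immunoproteasome, fell by 0.37 and 0.48 (edgeR adjusted p = 0.0236 and 0.0126). Without empty vector replicate 1 these gave edgeR adjusted p = 0.153, 0.0782, 0.0999, 0.0786 and 0.0459 in that order. The seventh promoter with the core belonged to RT1-N3, which was not called (log2 change -0.04, edgeR adjusted p = 0.773). Other motifs were searched in the same promoters, and the interferon core was not the only frequent one. Of the 19 antigen processing promoters, 4 (21.1%) held the letters GGGANTTTC of the kB site, against 1.2% of genes tested. CCAAT stood in 14 of them (73.7%, against 38.1%). The letters CACGTG and CCGGAAGT stood in 0 of the 19, against 9.7% and 8.3% of genes tested. These matches are a description of letters in a window and not of bound sites.

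Lysosomal genes fell in the largest number. Of 51 tested genes of lysosomal hydrolases and membrane proteins, 35 were lower, 1 higher and 15 not called (median log2 fold change -0.30), and 27 were lower and 1 higher without empty vector replicate 1. Lgmn, an asparaginyl protease, was at 258, 257 and 231 CPM with the empty vector and 173, 183 and 165 CPM with HDAC1 (log2 change -0.52, SE 0.07, edgeR adjusted p = 4.86e-05). Scpep1, a serine carboxypeptidase, was at 362, 352 and 318 CPM and 239, 269.6 and 246 CPM (log2 change -0.45, SE 0.06, edgeR adjusted p = 8.51e-05). Scarb2, the membrane protein that sorts glucocerebrosidase to lysosomes, fell from 435, 453 and 374 to 294, 318 and 305 CPM (log2 change -0.46, SE 0.07, edgeR adjusted p = 0.000113). The groups were well apart and the HDAC1 libraries close together in these genes. Neu1, a sialidase, fell by 0.44 and Ctss, a cathepsin of antigen-presenting cells, by 1.27 on the log2 scale (edgeR adjusted p = 0.000142 and 0.000149). The gene that rose was Arsb, named here after its values were seen (log2 change 0.22, edgeR adjusted p = 0.0175, called in 4 of the 6 fits that left out a library). Summed over the list, the level was 14500 to 15810 CPM with the empty vector and 12580 to 13160 CPM with HDAC1.

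The CLEAR element, the site through which factors of the TFEB family act on lysosomal genes, has the core TCACGTGA. It stood in 0.8% of all promoters, in 1.8% of those of genes tested, in 1.7% and 1.6% of those of genes called higher and lower, and in 5 of 37 promoters of the lysosomal list (13.5%). Lamp1, a main protein of the lysosomal membrane, held 2 matches and is shown as the one of the 5 that was called lower, with the core in capitals.
Lamp1: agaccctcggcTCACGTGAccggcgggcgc
In GRCr8 these bases lie at chr16:83075111-83075140 (minus strand, match from 66 bases before the start).
Lamp1 fell by 0.26 on the log2 scale (edgeR adjusted p = 0.00709, and 0.0685 without empty vector replicate 1), while Ctsd, Galc, Mcoln1 and Atp6v0d1, which also held the core, were not called. The core was thus no more frequent among genes called lower than among all genes tested, although it was more frequent in the list.

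Autophagy genes and genes of protein folding in the endoplasmic reticulum moved the same way in part. Of 33 autophagy genes 10 were lower and 0 higher by edgeR's test, and 6 lower without empty vector replicate 1 or without HDAC1 replicate 3. Calcoco1, a receptor for autophagy of the endoplasmic reticulum, was at 80.05, 75.6 and 70.2 CPM and 46.2, 54.9 and 49.5 CPM (log2 change -0.59, SE 0.08, edgeR adjusted p = 3.87e-05). Wipi1, which acts on forming autophagosomes, fell by 0.40 (edgeR adjusted p = 0.000778). Of 39 genes of the unfolded protein response and folding, 11 were lower and 0 higher by edgeR's test (2 higher at an unadjusted p under 0.05 and 1 by DESeq2). These were 5 without empty vector replicate 1, 7 without empty vector replicate 2, 4 without HDAC1 replicate 1 and 3 without HDAC1 replicate 3. Calr, the chaperone calreticulin, which also takes part in loading class I molecules, was at 1676, 1604 and 1529 CPM and 1234, 1362 and 1208 CPM (log2 change -0.34, SE 0.07, edgeR adjusted p = 0.00263). Proteasome genes had 0 higher and 2 lower of 37 by edgeR's test (5 higher at an unadjusted p under 0.05 and 1 by DESeq2; 2 lower without empty vector replicate 1, 1 without HDAC1 replicate 1 and 0 without HDAC1 replicate 3), a share below that of all genes.

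**Figure D3:**
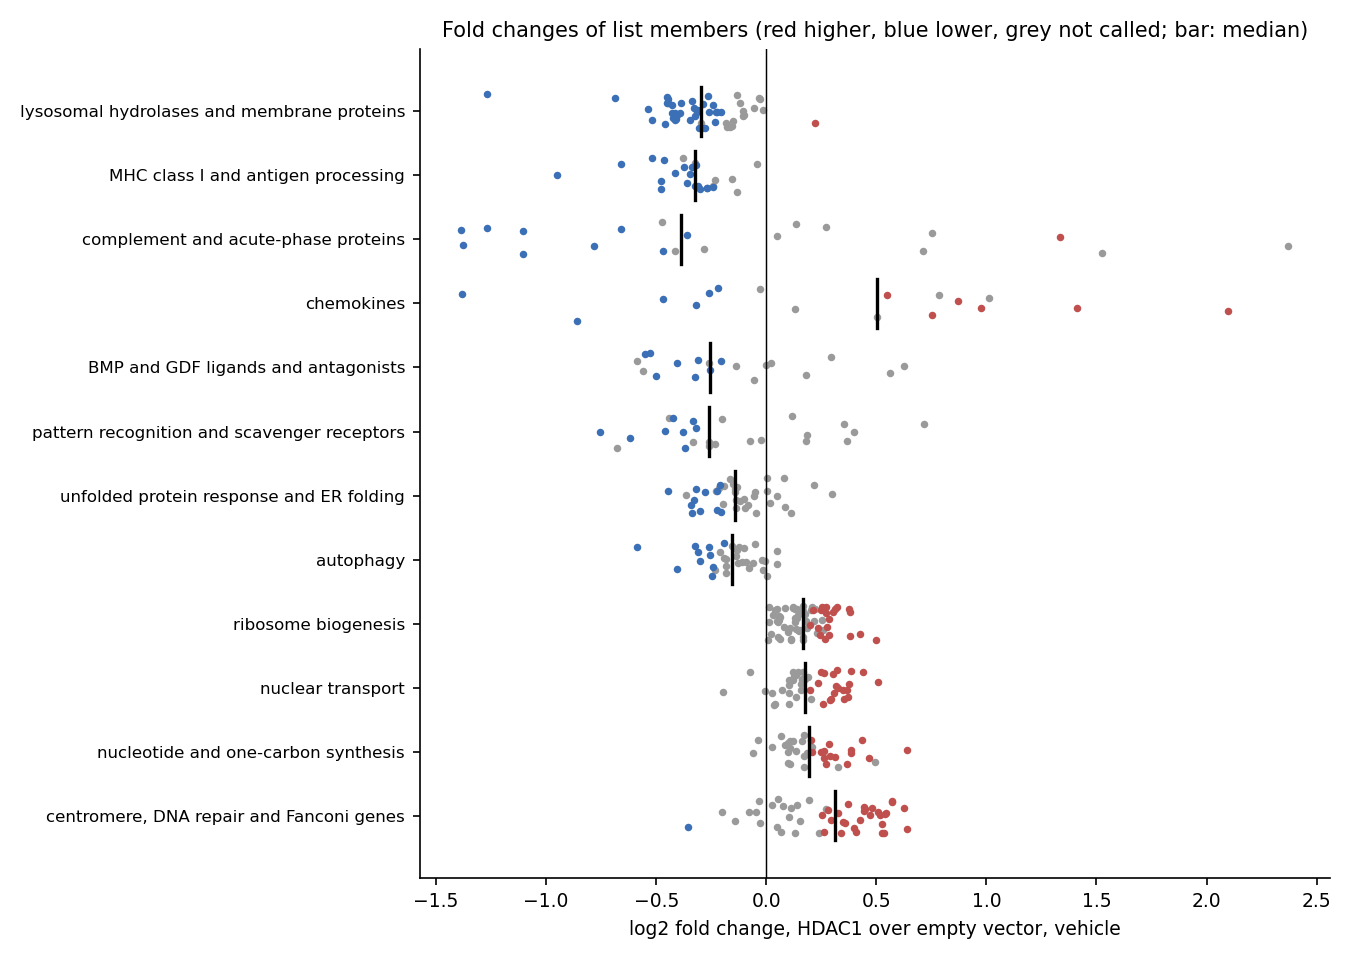
Log2 fold change of HDAC1 over empty vector in vehicle (horizontal axis) for every tested member of 12 lists, with members called higher in red, lower in blue and not called in grey; the black bar is the list's median. The 66 ribosome biogenesis genes all lie right of 0 and the 25 antigen processing genes all left of it, while chemokines spread to both sides.

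The genes that rose as groups belonged to growth and nuclear functions. Ribosome biogenesis, the making of ribosomal RNA and its assembly, had 20 of 66 higher and 0 lower by edgeR's test, with fold changes above 1 in all 66, in 61 without empty vector replicate 2 and in 63 to 66 without any other library (median log2 fold change 0.17). Without empty vector replicate 1 or without HDAC1 replicate 3 these were 13 higher, without empty vector replicate 2 they were 12 and without HDAC1 replicate 1 they were 11. Nop56, a core protein of the small particles that methylate ribosomal RNA, was at 79, 73.5 and 79.9 CPM and 109, 91.9 and 102 CPM (log2 change 0.38, SE 0.08, edgeR adjusted p = 0.00161). Nhp2 and Nop10, of the particles that make pseudouridine, were at 75.5, 69 and 82 and 34.3, 27 and 32.3 CPM with the empty vector and at 108, 99.5 and 97.8 and 44.8, 45.1 and 42.5 CPM with HDAC1 (log2 changes 0.43 and 0.50, SE 0.08 and 0.10, edgeR adjusted p = 0.00161 and 0.00196). All HDAC1 libraries exceeded all empty vector libraries in these 3 genes. The E-box CACGTG, which includes sites of MYC and lies inside the CLEAR core, stood in 20 of 58 promoters of this list (34.5%), against 9.7% of the promoters of genes tested, 10.1% of those called higher and 7.4% of those called lower. It also stood in 11 of 37 promoters of the lysosomal list (29.7%), of which more genes fell than rose. The ETS letters CCGGAAGT stood in 20 of 58 promoters of ribosome biogenesis genes as well (34.5%), against 8.3% of those of genes tested.

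The list of MYC network members and direct targets had 13 higher and 3 lower of 28 (9 and 1 without empty vector replicate 1, 8 higher without empty vector replicate 2 or HDAC1 replicate 3, and 6 without HDAC1 replicate 1). Odc1, the first enzyme of polyamine synthesis, was at 218, 213 and 220.3 CPM and 323, 259 and 285 CPM (log2 change 0.41, SE 0.07, edgeR adjusted p = 0.000530). Mxd4, a repressor that competes with MYC for its partner MAX, was at 90.3, 90.2 and 79.8 CPM and 37.2, 57.3 and 42.8 CPM (log2 change -0.93, SE 0.15, edgeR adjusted p = 0.00126). It fell to its lowest level in HDAC1 replicate 1. Myc itself was at 45.7, 40.5 and 47.6 CPM and 59, 47.9 and 59.3 CPM (log2 change 0.31, SE 0.08, edgeR adjusted p = 0.0117); the groups nearly touched, and the call was lost without empty vector replicate 2 (edgeR adjusted p = 0.0681), HDAC1 replicate 1 (0.0600) or HDAC1 replicate 3 (0.0548).

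Nuclear transport genes had 20 of 45 higher and 0 lower by edgeR's test (15 and 0 without empty vector replicate 1). Kpna2, an importin that carries proteins into the nucleus, was at 224, 219 and 247 CPM and 328, 298 and 309 CPM (log2 change 0.44, SE 0.06, edgeR adjusted p = 0.000108). Cse1l, which returns importins to the cytoplasm, was at 102, 101 and 105 and 140.0, 128 and 134 CPM (log2 change 0.38, SE 0.06, edgeR adjusted p = 0.000166). Nucleotide and one-carbon synthesis had 15 of 36 higher and 0 lower by the same test (13 and 0), with Dut, which keeps uracil out of DNA, rising from 68.9, 73.2 and 71.8 to 102, 88.1 and 98.5 CPM (log2 change 0.43, SE 0.07, edgeR adjusted p = 0.000196). Genes of centromeres, DNA repair and the Fanconi pathway had 28 of 48 higher and 1 lower (23 and 0; median log2 fold change 0.31). Fancd2 and Fanci, the pair that marks crosslinked DNA, were at 46.2, 45.8 and 51.4 and 50.7, 47.2 and 56 CPM with the empty vector and at 67.6, 63.8 and 67.9 and 76.7, 67 and 75.5 CPM with HDAC1 (log2 changes 0.47 and 0.51, SE 0.07 and 0.07, edgeR adjusted p = 7.57e-05 and 0.000114). Uhrf1, which guides maintenance DNA methylation, rose by 0.54 (edgeR adjusted p = 0.000114). The one that fell was Rad52, which was called in none of the 6 fits that left out a library (log2 change -0.36, edgeR adjusted p = 0.0495; 0.147 without empty vector replicate 1). Many of these genes are expressed most in dividing cells, and these lists were drawn up with a rise of cell division genes in these libraries known.

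Chromatin genes belonged to the same side. Of 35 histone and histone chaperone genes 14 were higher and 0 lower by edgeR's test (10 and 0 without empty vector replicate 1, 8 and 0 without HDAC1 replicate 1; 1 lower at an unadjusted p under 0.05, 0 by DESeq2). H2az1, a histone variant of promoters, was at 207, 196 and 217 CPM and 288, 280.4 and 279 CPM (log2 change 0.45, SE 0.07, edgeR adjusted p = 0.000108). Hat1, which acetylates new histone H4 before its deposition, was at 84.1, 85.7 and 86.7 CPM and 112, 106 and 104 CPM (log2 change 0.33, SE 0.07, edgeR adjusted p = 0.00158). The groups did not overlap in either. Chaf1a, the large subunit of chromatin assembly factor 1, and Asf1b, another histone chaperone, rose by 0.34 and 0.42 (edgeR adjusted p = 0.00409 and 0.00294).

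Promoters of the genes called higher were set beside those called lower for elements of genes of dividing cells. The CHR letters TTTGAA stood in 24.0% of 700 promoters of genes called higher, in 10.6% of 754 called lower and in 11.8% of those of genes tested. CCAAT stood in 49.3%, 36.7% and 38.1%, and the E2F letters TTTGGCGC in 3.1%, 0.5% and 1.0%. The median GC content of these promoters was 60.3% for genes called higher and 61.0% for genes called lower. Each search covered both strands, and these shares describe letters only.

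Cytoskeletal genes rose in part. Of 58 tubulin, septin and actin regulator genes, 12 were higher and 1 lower (11 and 0 without empty vector replicate 1). Anln, anillin of the contractile ring, was at 195, 181 and 212 CPM and 325, 268 and 315 CPM (log2 change 0.63, SE 0.08, edgeR adjusted p = 4.98e-05). Septin11, a filament protein, was at 318, 292 and 327 and 398, 399 and 426 CPM (log2 change 0.38, SE 0.06, edgeR adjusted p = 0.000287).

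Signalling pathways other than those above moved by single members. In the Notch pathway Jag1, a ligand, rose from 19.1, 19.9 and 19.2 to 30.5, 23.7 and 28.6 CPM (log2 change 0.51, SE 0.09, edgeR adjusted p = 0.000379), while the list had 2 higher and 3 lower of 25 (1 and 1 without empty vector replicate 1 or HDAC1 replicate 1). Among WNT receptors and targets of beta-catenin, Apcdd1, an inhibitor of WNT receptors, fell from 28.2, 26.7 and 25.1 to 16.6, 18.3 and 19 CPM (log2 change -0.57, SE 0.09, edgeR adjusted p = 0.000191), and 4 of 23 were lower and 1 higher (2 lower without empty vector replicate 1, HDAC1 replicate 1 or HDAC1 replicate 3). NRF2 targets and glutathione genes had 3 higher and 8 lower of 48 (2 and 4 without empty vector replicate 1, with 4 or 5 lower without any of the others but HDAC1 replicate 2). Nqo1, a quinone reductase, rose by 0.39, and Sod2, the mitochondrial superoxide dismutase, fell by 0.43 (edgeR adjusted p = 0.00212 and 0.000415). Fatty acid synthesis, fatty acid oxidation and MAPK feedback lists had 1 or 2 rises and 1 to 3 falls each, and 0, 0 and 2 rises and 1, 1 and 0 falls in that order without empty vector replicate 1.

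Markers were read to see what the libraries held. Of 14 fibroblast markers 11 were matched by name and all were measured: Vim was higher, Pdgfrb, Col1a1, Col1a2, Pdgfra and Ddr2 were lower and 5 were not called, with a summed level of 15700 to 17840 CPM with the empty vector and 12610 to 14740 CPM with HDAC1. Of the 5 lower markers, 3 were called without empty vector replicate 1 or 2 or HDAC1 replicate 1 or 3; Vim, Pdgfra and Ddr2 were not called without empty vector replicate 1 (edgeR adjusted p = 0.0726, 0.0986 and 0.116). Of 14 leukocyte markers 3 were matched, and Mpeg1, a pore protein of macrophages, was at 18.3, 16.6 and 17.2 CPM with the empty vector and 7.48, 6.53 and 7.33 CPM with HDAC1 (log2 change -1.29, SE 0.12, edgeR adjusted p = 1.59e-06). Cd68, a lysosomal protein abundant in macrophages, was at 10.1, 8.64 and 9.16 and 6.89, 5.03 and 4.48 CPM (log2 change -0.75, SE 0.17, edgeR adjusted p = 0.00450). Csf1r, the receptor that defines the macrophage lineage, was at 0.486, 0.636 and 1.07 and 1.4, 0.668 and 0.935 CPM (log2 change 0.45, SE 0.37, edgeR adjusted p = 0.483). The summed level of the 3 was 25.9 to 28.9 CPM against 12.2 to 15.8 CPM, and it moved with the lysosomal, antigen processing and pattern recognition genes; its part in those falls was not tested. In bulk RNA, fewer cells of a type and less RNA per cell cannot be told apart. Of 16 kidney epithelial markers 5 were matched, of which Krt8 and Cubn were higher (edgeR adjusted p = 0.00158 and 0.0452, and 0.00866 and 0.141 without empty vector replicate 1), and 7 endothelial markers had 0 calls by edgeR's test, with a summed level of 22.8 to 27.9 CPM over all 6 libraries.

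**Figure D4:**
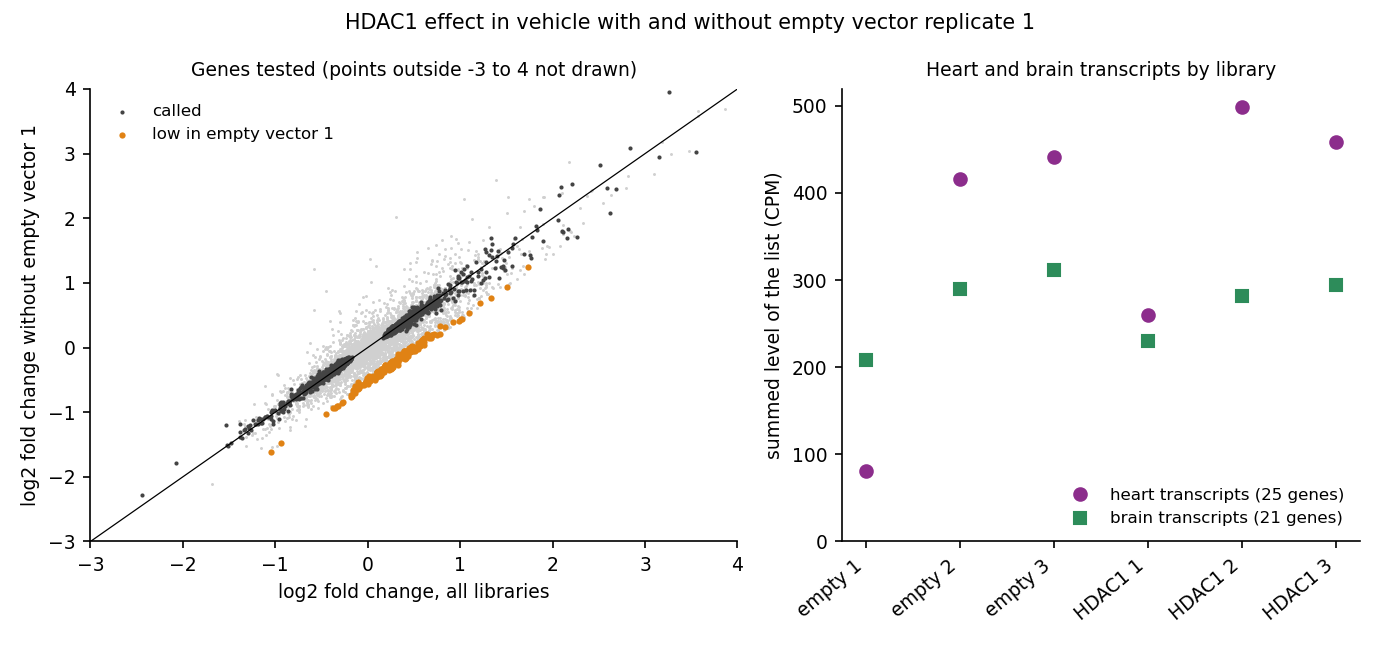
Left, log2 fold change of HDAC1 over empty vector in vehicle with all libraries (horizontal) and without empty vector replicate 1 (vertical) for the genes tested; called genes are dark, the 170 genes low in that replicate are orange, the line marks equality and 5 points lie outside the axes. Right, the summed level in CPM of 25 heart and 21 brain transcripts in each library, lowest in empty vector replicate 1 for both. On the left, the orange genes lie below the line, which follows from how they were picked, while the called genes lie along it.

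Heart and brain transcripts, read as markers of other tissues, differed between libraries. The 25 heart transcripts summed to 81.4, 415.6 and 441.7 CPM in empty vector replicates 1, 2 and 3. They summed to 260.4, 498.3 and 458.1 CPM in the HDAC1 libraries. The 21 brain transcripts summed to 208.4, 289.6 and 311.5 CPM and to 229.6, 281.2 and 293.8 CPM, but most of this came from Cnp, which was well expressed in every library and called lower, at 182, 164 and 182 and 136, 168 and 147 CPM (log2 change -0.23, SE 0.07, edgeR adjusted p = 0.0442). Its groups overlapped, and it was called in 2 of the 6 fits that left out a library (edgeR adjusted p = 0.160 without empty vector replicate 1). The other 20 summed to 26.02, 125.7 and 129.1 CPM with the empty vector and to 93.04, 112.7 and 146.8 CPM with HDAC1. Empty vector replicate 1 was thus lowest for both, and HDAC1 replicate 1 was the lowest of the HDAC1 libraries. With all libraries the median log2 fold change was 0.40 for the heart list and 0.27 for the brain list; without empty vector replicate 1 it was -0.05 and -0.20. In all, 170 genes were at least 4-fold lower in empty vector replicate 1 than in both other empty vector libraries (after adding 0.1 CPM). Of these 1, Hdac1l, was among the 2038 called, against 14.0% of all genes tested. By definition such genes spread widely within the empty vector group, which makes a call unlikely. The count therefore does not measure the part of that replicate in the calls. Of the heart list Nppb was called (log2 change 1.11, edgeR adjusted p = 0.0257), a call lost without empty vector replicate 1 (edgeR adjusted p = 0.124), without empty vector replicate 2 or without HDAC1 replicate 1. Of the 246 genes chosen by the rule for named genes, 192 remained called without empty vector replicate 1.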

How the data were processed

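Poly(A) RNA of NRK-49F cells was sequenced in 12 libraries. The authors deposited raw counts per gene, used for all tests, and a normalized signal, which equals the deposited count divided by 1 constant per library (largest relative deviation 1.2e-09) and keeps the 14275 genes with at least 100 counts in total. The submitters' processing notes list Trim Galore 0.6.7, Subread 2.0.1, featureCounts and DESeq2 1.44 as tools. As build they give mm10, a mouse genome, but the deposited identifiers are rat. No aligner or rat build is given in the sources used here, nor what was done with reads matching several genes, so near-identical genes are uncertain. Gene names came from the deposited signal table, which pairs them with identifiers; 1909 genes tested had no name and 155 shared one, so lists cover named genes only.

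Genes were filtered with filterByExpr of edgeR 4.0.16 (R 4.3.3), which kept 14601 of 43360 genes and at least 99.879% of each library's counts. Libraries were scaled by TMM, and a robust quasi-likelihood model with 1 mean per group was fitted to all 12 libraries (8 residual degrees of freedom, common biological coefficient of variation 7.61%). Tests were two-sided, with Benjamini-Hochberg adjustment over all genes tested and a threshold of 0.05. The SE of a log2 fold change was taken as its absolute value over the root of F. Depth and the number of libraries limit precision, and low genes most. Replicates differed by more than sampling noise (chi-square per degree of freedom 4.63 to 13.63). The script was tested on simulated data. The fit was repeated with size factors from DESeq2 1.42.0, with that tool's own test, without the filter, at a mean CPM of 1 or more, on the 6 vehicle libraries only, with the replicate number as a block, and with each library left out in turn.

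The libraries, the 67 gene lists and the rules were chosen with earlier results of these data known. The rule for named genes takes Hdac1 and Hdac1l, the 15 largest rises and falls (mean log2 CPM 2 or more), and the 8 largest rises and falls of each class (mean log2 CPM 0 or more). These must be called and not overlap between groups. It adds up to 4 called members per list with the smallest adjusted p. Some genes and 1 list are not reported here.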

Additional observations from a re-analysis of the deposited data

Results flagged for a closer look

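Of the 246 named genes, 7 had an HDAC1 effect that differed between the treatments by edgeR's interaction term, adjusted over all 14601 genes, of which 70 (0.479%) were called. Each value is the log2 fold change with TGFB1 minus that in vehicle. The genes were named for their change in vehicle, so the comparison favours smaller effects with TGFB1. Ngfr, which rose by 1.20 in vehicle, was at -0.06 with TGFB1 (difference -1.25, edgeR adjusted p = 0.0416). Aspn fell by 1.09 in vehicle and was at -0.09 with TGFB1 (difference 1.00, edgeR adjusted p = 0.0180), and Ccn5 was at -1.22 and -0.45 (difference 0.77, edgeR adjusted p = 0.0336). Mybphl was at -1.18 in vehicle and -2.97 with TGFB1 (difference -1.80, edgeR adjusted p = 0.0460). Inhbb, an activin subunit, was at -0.50 and 0.14 (difference 0.65, edgeR adjusted p = 0.0337). Tspan7 was at 0.39 and -0.06 (difference -0.45, edgeR adjusted p = 0.0262), and Racgap1 at 0.57 and 0.17 (difference -0.41, edgeR adjusted p = 0.0341). Mybphl is the one whose effect was larger with TGFB1.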

How the results depend on the processing

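The number of genes changed was 2038, with 969 raised and 1069 lowered. It was 2059 with DESeq2 size factors, 2319 with the DESeq2 test, 2204 without a filter, 2122 at a mean CPM of at least 1 and 2107 with the 6 vehicle libraries alone. The number of genes changed at least 2-fold was 117; it was 220 without a filter and 71 at a mean CPM of at least 1, since the first tests more low genes and the second fewer. Leaving out 1 library gave 1153 to 2132 changed genes (628 to 1035 raised, 525 to 1097 lowered) and 63 to 164 genes at 2-fold or more. Each of these counts was lowest without HDAC1 replicate 1 and highest without HDAC1 replicate 2. A fit with the replicate block called 1931 genes (990 raised, 941 lowered, 100 at 2-fold or more). Whether replicate numbers pair the samples is not known, since the design names no shared culture. Deviations of same-numbered libraries correlated at 0.073, -0.011 and 0.118 across genes, and those of differently numbered libraries at -0.115 to 0.039. Of the 246 named genes, 0 changed sign under these alternatives by edgeR or DESeq2, 245 remained called with the DESeq2 test, 229 with the replicate block, 192 without empty vector replicate 1 and 180 without HDAC1 replicate 1. The cause was not tested. A gene whose groups do not overlap can hardly change sign when 1 library is left out. The rule for the largest changes took only such genes. Genes near 1 CPM rest on few counts, which limits their precision most.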

Other observations

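Other lists of metabolism and secretion held changes in some of their members. Amino acid transporters had 3 higher and 4 lower of 27 (1 higher without empty vector replicate 1 or 2 or HDAC1 replicate 1), and targets of ATF4, the factor of the amino acid response, had 5 higher and 4 lower of 28 (4 and 3 without empty vector replicate 1, 3 higher without HDAC1 replicate 1 or empty vector replicate 2). Chac1, which breaks down glutathione, rose by 0.54 on the log2 scale, and Nupr1, a stress protein, fell by 0.63 (edgeR adjusted p = 0.00229 and 0.00413). Of 50 genes of the mitochondrial ribosome and import, 6 were higher and 0 lower by edgeR's test, beside 14.0% called and 6.64% higher among all genes tested. The list had 2 higher without HDAC1 replicate 1, 4 without empty vector replicate 1, and likewise without empty vector replicate 2 or HDAC1 replicate 3. Timm8a1 was at 17.2, 19.1 and 20.1 CPM with the empty vector and 27.6, 27.0 and 25.8 CPM with HDAC1 (log2 fold change 0.51, edgeR adjusted p = 0.00245). The carrier and chaperone Clu fell by 0.36 (edgeR adjusted p = 0.000421) and was the 1 call among 14 apolipoproteins and lipid carriers. Of 11 IGF-binding proteins and related genes 1 was lower, Igfbp5, and it was not called without empty vector replicate 1 or 2 or HDAC1 replicate 1. Pla2g2a, a secreted phospholipase, fell by 0.52 (edgeR adjusted p = 0.00159) and was the 1 call among 14 genes of prostaglandin synthesis.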
